A study of Glycine max with 8 samples.

Results

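WRKY transcription factors were followed through early seed development of soybean (Glycine max, cultivar Tamahomare). A gene was a member when a probe set of the array mapped to it alone and its symbol was WRKY followed by a number. This gave 52 genes with 103 probe sets, out of 6029 genes named in that way; the array holds 37641 soybean probe sets. All 52 genes were found in RefSeq under an equal symbol, and 47 of them passed a filter on dim signals described below. The probe set with the highest mean signal stood for each gene.

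Total RNA was hybridised to 8 Affymetrix arrays, 2 for each of 4 stages. Pods were sampled at the start of pod elongation. The next samples held pods together with seeds whose beans measured 2 mm, and the last stages were seeds alone, with beans of 5 mm and with green, fully grown seeds. Nothing in the labels separates the stages by treatment or genotype, and whether the 2 arrays of a stage stand for separate plants is not stated, so p-values reflect the spread of these samples alone, which may be technical. The sampled tissue changed together with the stage, and the effects of tissue and stage cannot be told apart.

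WRKY proteins are plant transcription factors that bind the W-box, a short promoter motif, through a conserved domain with a zinc finger. They are best known for responses to pathogens, drought and salt, where MAP kinases act on several of them, and some also act in leaf ageing and seed development. In Arabidopsis thaliana, TTG2 acts in the seed coat and MINI3 in the endosperm. Soybean WRKY genes are numbered independently of those of Arabidopsis, so a shared number does not make a pair of genes counterparts.

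Signals were scaled so that every array had an equal median over tested probe sets. Before scaling, these medians lay between 24.1 and 138, and the geometric mean of 9 hybridization controls lay between 462 and 1032. For background, the 95th percentile over probe sets for soybean pathogens was taken on each array, between 5.62 and 6.68 in scaled units at the first 3 stages and 15.98 and 18.6 on the fully grown arrays. A probe set was tested when it exceeded this on at least 2 of 8 arrays. Glycinins, storage proteins that mark seed filling, had a summed scaled signal of 6.03 to 13.6 on the arrays of the first 2 stages, 22.8 and 684 on the 5 mm arrays, and 60700 and 66800 in fully grown seeds, with 4 of 5 listed genes found. The 2 arrays of the 5 mm seeds thus differed widely in this sum.

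Fewer WRKY transcripts were detected at each later stage. At pod elongation 46 of the 52 genes were above background on both arrays. The number was 38 in the 2 mm samples, 32 at bean 5 mm and 21 in fully grown seeds. As shares these are 88.5%, 73.1%, 61.5% and 40.4%, while of all soybean probe sets 82.5%, 80%, 78.9% and 66.8% were above background on both arrays. Detection was judged within each array and so did not depend on the scaling between arrays. It did depend on background, which in scaled units was 15.98 and 18.6 on the fully grown arrays and at most 6.68 on the others. WRKY2, at 10.2 and 10.4 in fully grown seeds and 11.8 and 11.4 at pod elongation, was counted as detected at pod elongation only of these 2 stages. The part of the higher background in the lower share was not tested. The difference between the family and the whole array was not tested. WRKY21, WRKY25, WRKY62, WRKY63 and WRKY64 were above background on at most 1 array and were not tested. WRKY21 is known to raise cold tolerance when overexpressed in Arabidopsis. Among the tested members, 2 (WRKY17 and WRKY19) were above background at pod elongation only and so passed the filter through that stage alone. WRKY5, WRKY30, WRKY40 and WRKY53 were above it on both pod elongation arrays and 1 bean 2 mm array, and WRKY38 on 1 array of each stage. These would not have passed without pod elongation either. WRKY5, WRKY17, WRKY30 and WRKY53 are among the genes given below as highest at pod elongation.

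**Figure D1:**
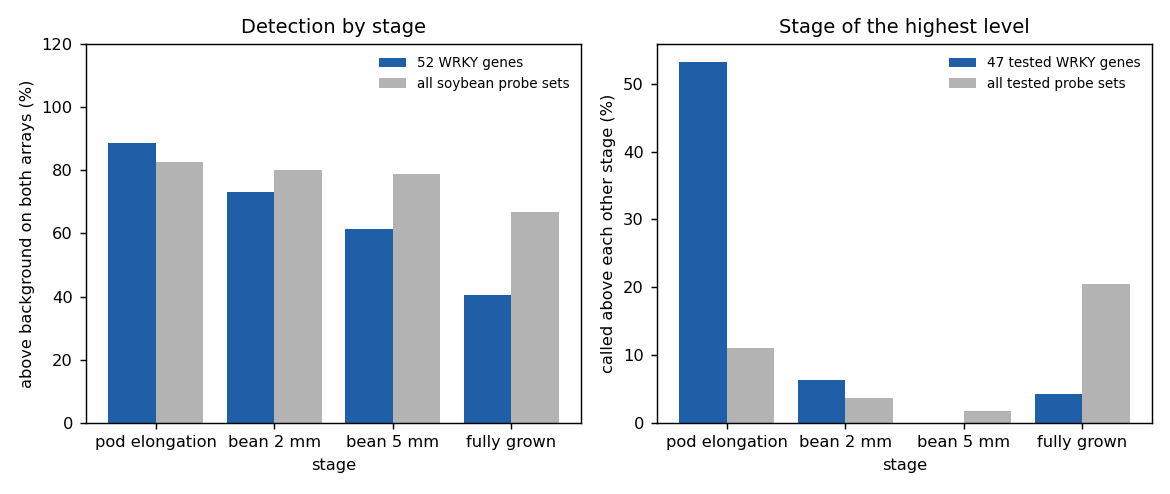
The left panel shows the percentage of the 52 WRKY genes (blue) and of all soybean probe sets (grey) above background on both arrays of a stage, and the right panel the percentage of 47 tested WRKY genes and of all tested probe sets that were called above each of the other 3 stages. Detection of WRKY genes goes from 88.5% at pod elongation to 40.4% in fully grown seeds, and 53.2% of tested members were highest at pod elongation.

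Transcripts of 25 of the 47 tested genes were called higher at pod elongation than at each of the other 3 stages (limma, adjusted p below 0.05 over 33625 tested probe sets in each comparison). That is 53.2% of those tested, while 11.1% of all tested probe sets, and 14.4% of 5812 named genes taken by their brightest probe set, had this pattern. Bean 2 mm was the highest stage for 3 genes (6.38%, against 3.69% of all tested probe sets) and fully grown seeds for 2 (4.26%, against 20.4%). No gene was highest at bean 5 mm, where 1.7% of all tested probe sets were. For the remaining 17 genes no stage was above all others. These smaller counts moved with the processing. The number highest at bean 2 mm was 11 without scaling and 1 when bean 2 mm replicate 2 or bean 5 mm replicate 2 was left out, and the number highest in fully grown seeds was 0 without scaling, 0 after scaling to the hybridization controls and 4 when fully grown replicate 1 was left out. Of the 25 genes, 20 had this pattern under all 4 scalings of the arrays that were tried, and 24 without the filter on dim signals. Across the stages as a whole, 38 of the 47 genes differed (moderated F test), against 76.7% of all tested probe sets.

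**Figure D2:**
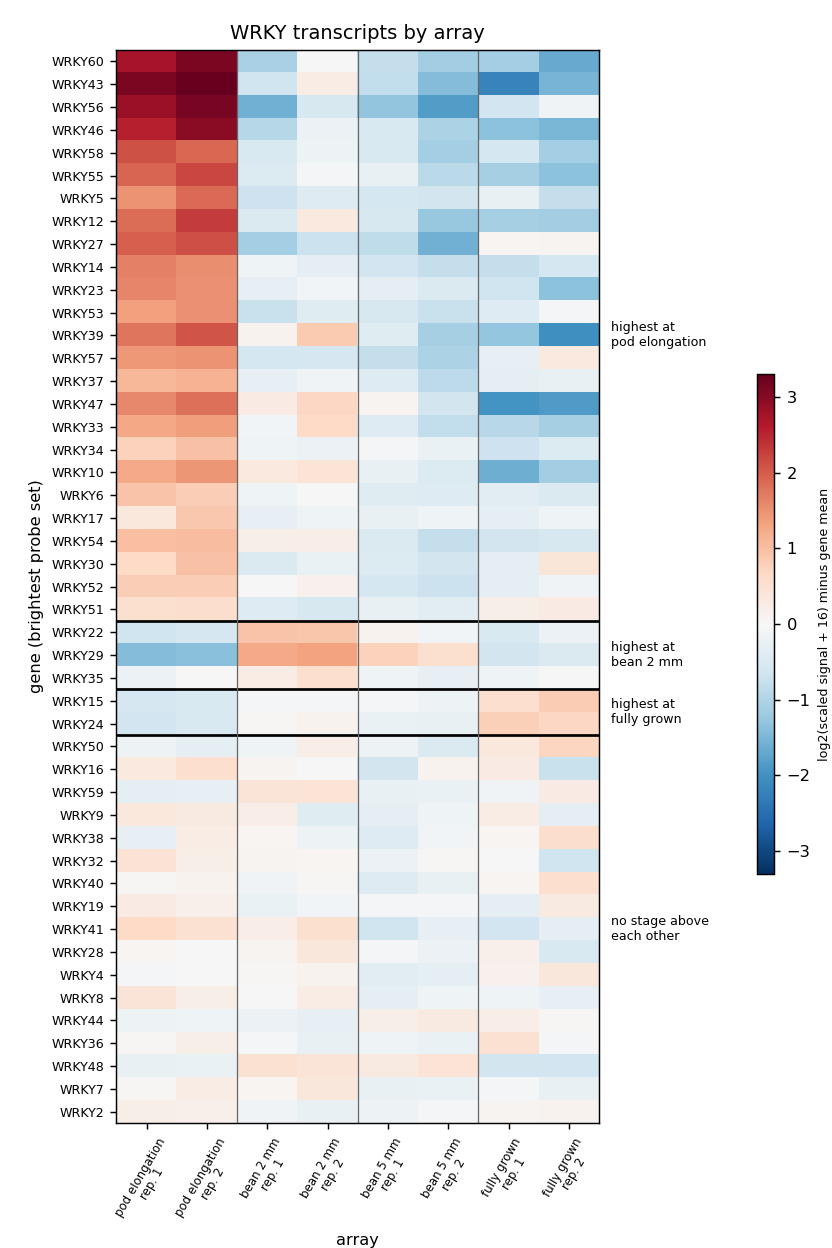
Each row is 1 of 47 tested WRKY genes and each column 1 of 8 arrays. Colour gives log2(scaled signal + 16) minus the gene's mean over the arrays, and black lines divide the genes by the stage called above each other stage. The top 25 genes are red on both pod elongation arrays.

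From pod elongation to bean 2 mm, WRKY56, WRKY60, WRKY43 and WRKY46 fell the most, each over 10-fold, and WRKY29 and WRKY22 rose. Fold changes were taken on the scale log2(scaled signal + 16), which understates changes of dim transcripts. Of the 47 tested genes 25 fell (53.2%) and 7 rose (14.9%). Of all tested probe sets 20.4% were lower and 26.5% higher, and 46.9% changed in all. A fall of at least 2-fold was called for 20 of the genes and for 10.1% of all tested probe sets. The median log2 change was -0.80 for the WRKY genes and 0.08 for all tested probe sets. All of the falls and rises had arrays that did not overlap between the stages. Genes that were not called, such as WRKY16 and WRKY44, had none either, so this adds no support to the calls.

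WRKY56 gave scaled signals of 654 and 808 in elongating pods, 15.4 and 49.3 in the 2 mm samples, 21.9 and 10.1 in the 5 mm seeds, and 44.3 and 69.6 in fully grown seeds. Both pod elongation arrays were far above every other array. Its means were 731 ± 109 at pod elongation and 32.3 ± 24.0 at bean 2 mm (SD, n = 2, as for all later means), a 16.4-fold lower level with an adjusted p of 2.6e-05. The probe set is of a kind that can match several transcripts, but the other 4 tested probe sets of WRKY56 also fell in this step, by 2.65 to 4.11 on the log2 scale.

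WRKY60 was at 369 and 484 in elongating pods, 11.6 and 42.0 in the 2 mm samples, 18.0 and 10.2 in the 5 mm seeds, and 10.9 and 2.33 in fully grown seeds, where neither array was above background. The fall to bean 2 mm was 11.0-fold, with an adjusted p of 7.08e-05. The second tested probe set of WRKY60 fell by 3.17 on the log2 scale, against 3.45 for the first.

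WRKY43 was at 637 and 731 in elongating pods, 32.2 and 73.7 in the 2 mm samples, 26.9 and 12.2 in the 5 mm seeds, and 0.506 and 10.0, below background, in fully grown seeds. It fell 10.6-fold to bean 2 mm, with an adjusted p of 6.39e-05. WRKY46 was at 301 and 407 in elongating pods, 12.01 and 30.7 in the 2 mm samples, 21.6 and 10.0 in the 5 mm seeds, and 4.81 and 2.90, below background, in fully grown seeds. It fell 10.1-fold, with an adjusted p of 2.39e-05. For each of these 4 genes the lower pod elongation array was several times brighter than any array of a later stage.

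WRKY27, which raises drought and salt tolerance in soybean hairy roots, was at 263 and 296 in elongating pods, 16.9 and 27.5 in the 2 mm samples, 23.5 and 7.46 in the 5 mm seeds, and 57.9 and 59.2 in fully grown seeds. It fell 7.80-fold to bean 2 mm, with an adjusted p of 2.35e-05. Its probe set is of a kind that can match several transcripts, and the other 2 tested probe sets of the gene fell by 2.05 and 0.92 on the log2 scale. WRKY58 fell 5.04-fold, WRKY55 4.99-fold and WRKY5 4.67-fold. WRKY58 has a single probe set, also of a kind that can match several transcripts.

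The smallest of the 25 falls were those of WRKY52, 1.68-fold, and of WRKY54, 1.74-fold. WRKY54 is known to raise salt and drought tolerance when overexpressed in Arabidopsis. It was at 125 and 128 in elongating pods, 64.5 and 67.2 in the 2 mm samples, 35.0 and 24.9 in the 5 mm seeds, and 30.4 and 32.9 in fully grown seeds. Its fall to bean 2 mm was called under 3 of 4 scalings. For WRKY52 the call was lost without the probe sets that can match several transcripts, of which the set standing for it is 1. The falls of WRKY39 and WRKY17 were not called without pod elongation replicate 2, nor without bean 2 mm replicate 1.

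**Figure D3:**
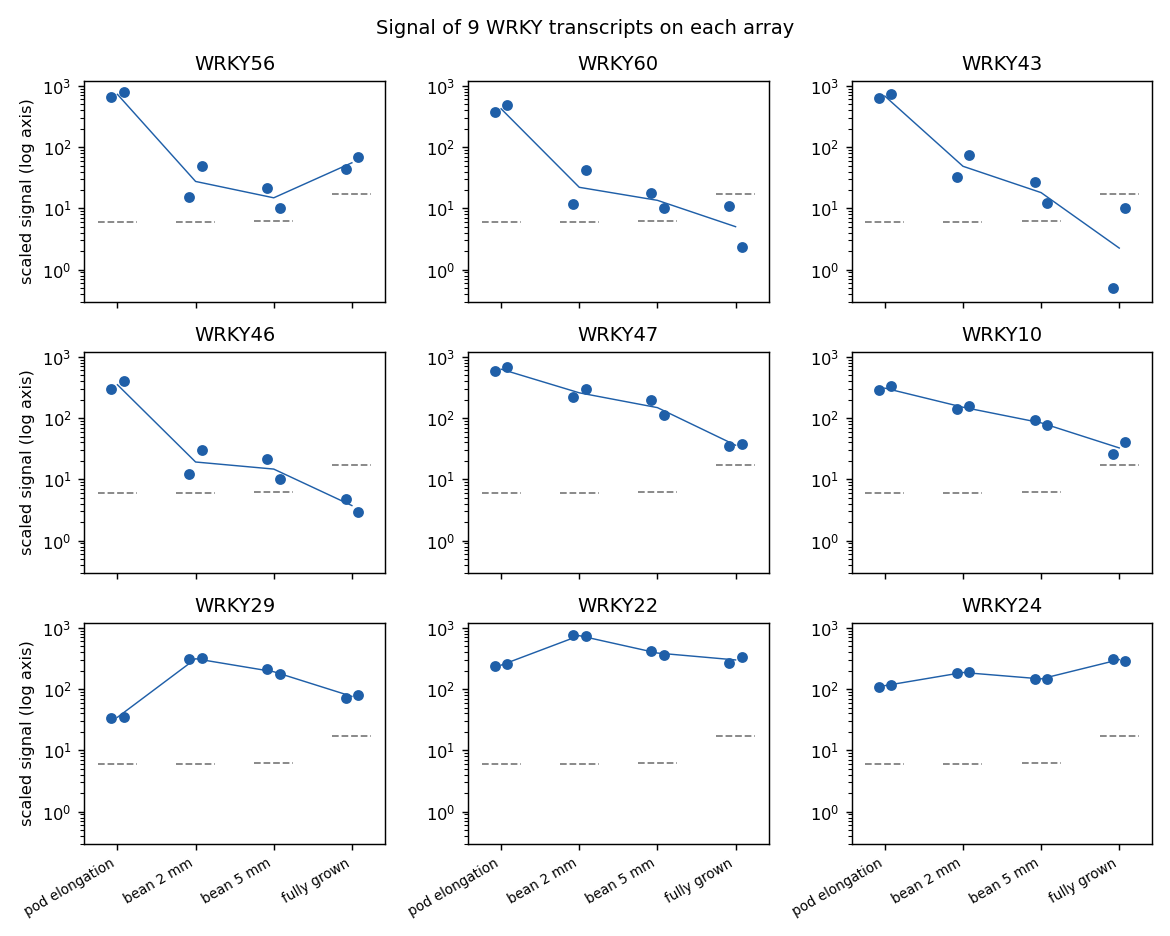
Scaled signal on a log axis, 1 point for each array, for 9 WRKY genes at the 4 stages. Lines join geometric means and grey dashes mark the mean background of a stage. WRKY56, WRKY60, WRKY43 and WRKY46 are brightest at pod elongation, and WRKY29 and WRKY22 are highest at bean 2 mm. The lines of WRKY47 and WRKY10 go down at each step, though the step of WRKY47 from bean 2 mm to bean 5 mm was not called. WRKY24 is highest in fully grown seeds at this scaling.

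The WRKY transcripts that rose in this step had another course. WRKY29 was at 33.7 and 35.6 in elongating pods, 304 and 322 in the 2 mm samples, 210 and 176 in the 5 mm seeds, and 71.6 and 80.7 in fully grown seeds, so that no 2 stages overlapped. It rose 6.49-fold from a mean of 34.7 ± 1.41 to 313 ± 12.5, with an adjusted p of 1.46e-06, then fell 1.58-fold to bean 5 mm and 2.26-fold to fully grown seeds. Its second tested probe set was called in the same direction at all 3 steps.

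WRKY22 was at 237 and 255 in elongating pods, 755 and 734 in the 2 mm samples, 419 and 358 in the 5 mm seeds, and 268 and 334 in fully grown seeds. It rose 2.90-fold to bean 2 mm and fell 1.89-fold to bean 5 mm. The 5 tested probe sets of WRKY22 differed in course. The other 4 correlated with the first over the 8 arrays at 0.336 to 0.965, and 2 of them were not called in the first step. WRKY59 rose 1.67-fold, WRKY48 1.61-fold, WRKY24 1.56-fold, WRKY35 1.41-fold and WRKY15 1.39-fold. The other tested probe sets of WRKY24, with log2 changes of 0.002 and 0.35, and of WRKY59, with 0.26, were not called in this step. For WRKY24 the call was lost when the probe sets of a gene were averaged. The rises of WRKY15 and WRKY35 were not called in several of the fits that left out 1 array, and that of WRKY35 was called under 2 of 4 scalings.

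Markers of other tissue moved in this step too. In bulk samples, fewer cells of a type and less RNA per cell cannot be told apart. Of 3 flower or carpel markers, the floral regulators AP1A and AG1 were called lower and SEP1 higher, and their summed scaled signal was 446 and 418 at pod elongation, 220 and 248 in the 2 mm samples, 178 and 181 in the 5 mm seeds, and 138 and 125 in fully grown seeds. Both green tissue markers, CAB3 of light harvesting and the Rubisco activase RCA14, were lower at bean 2 mm, with sums of 5720 and 5680 before and 1590 and 2250 after. Their sums were then 3590 and 4070 in the 5 mm seeds and 3100 and 3930 in fully grown seeds. In the second step CAB3 was called higher and RCA14 was not called. Both seed coat markers, ANR1 and SCB1, were higher at bean 2 mm, with sums of 1010 and 807 before and 6220 and 7550 after. Sums of these 2 were 6900 and 7170 in the 5 mm seeds and 444 and 803 in fully grown seeds. The part of the tissue markers in the WRKY results was not tested.

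Replicate arrays of a stage differed for the genes highest at pod elongation. At pod elongation 21 of these 25 genes were brighter on replicate 2, as were 48.4% of all tested probe sets and 55.3% of those highest at pod elongation. Of the 25 genes 22 were brighter on bean 2 mm replicate 2 than on replicate 1, as were 49.6% of all tested probe sets and 74.5% of all tested probe sets highest at pod elongation. Of the 3 flower or carpel markers, AP1A was at 8.21 and 35.1 on these arrays. AG1 was at 0.671, below background, and 7.80, and SEP1 was at 211 and 205. At bean 5 mm the order was turned, with 1 of the 25 genes brighter on replicate 2, beside 50.2% of all tested probe sets and 44.5% of those highest at pod elongation. Without bean 2 mm replicate 1, 23 WRKY genes were lower in the first step, and without replicate 2, 25 were.

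From bean 2 mm to bean 5 mm, 10 of 47 genes fell (21.3%) and 1 rose (2.13%), while 9.49% of all tested probe sets were lower, 9.29% higher and 18.8% changed. The median log2 change was -0.35 for the WRKY genes and -0.05 for all tested probe sets. WRKY39 fell the most, from 64.2 and 118 to 40.3 and 18.5, or 2.35-fold, with an adjusted p of 0.0351. Next were WRKY33, 1.89-fold lower, WRKY22, 1.89-fold lower, WRKY41, 1.80-fold lower, and WRKY54, 1.79-fold lower. WRKY10, WRKY52, WRKY59, WRKY29 and WRKY35 fell by less. The probe set of WRKY39 is of a kind that can match several transcripts, and its call was lost without such sets and at pseudocount 1. Of the other WRKY39 sets, that with a log2 change of -0.74 was called and those with -1 and -0.34 were not. The single rise, of WRKY44, went from 59.2 and 55.5 to 81.6 and 90.0, or 1.39-fold, and was called under 2 of 4 scalings, while its log2 change was -0.33 for unscaled values and 0.37 after scaling to the controls.

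These calls rested on few arrays. The 10 falls became 1 when bean 2 mm replicate 2 was left out, 5 when bean 5 mm replicate 1 was, 1 when bean 5 mm replicate 2 was, and 16 when either fully grown replicate was. WRKY22 alone was called lower in all of the 8 fits that left out 1 array, but not when the probe sets of a gene were averaged. The rise of WRKY44 was lost in each fit that left out an array of the first 3 stages. All 10 falls were called under each of the 4 scalings.

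From bean 5 mm to fully grown seeds, 8 of 47 genes fell (17%) and 10 rose (21.3%), against 20.5% lower and 31.6% higher among all tested probe sets, of which 52.1% changed. The median log2 change was 0.03 for the WRKY genes and 0.14 for all tested probe sets. The 8 falls were called under all 4 scalings, and none of the 10 rises was. After scaling to the controls no WRKY gene was higher and 32 (68.1%) were lower, beside 84.4% of all tested probe sets lower and 1.83% higher. Among unscaled values none was higher and 24 (51.1%) were lower, beside 59.1% lower and 5.26% higher. In these scalings the median log2 change of all tested probe sets was -1.36 and -0.64.

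WRKY47 fell the most in the last step. It was at 579 and 683 in elongating pods, 221 and 302 in the 2 mm samples, 194 and 113 in the 5 mm seeds, and 34.6 and 37.7 in fully grown seeds. The arrays of successive stages overlapped at none of the steps, but the change from bean 2 mm to bean 5 mm was not called (limma, adjusted p 0.0558). The last fall was 3.16-fold, with an adjusted p of 0.000373. WRKY10 was at 287 and 332, 142 and 160, 91.5 and 76.6, and 25.8 and 41.2 at the 4 stages in order. It fell at every step, by 1.95-fold, 1.67-fold and 2.04-fold, and was 1 of 2 genes to do so. The other WRKY10 probe set, above background on all 8 arrays, had log2 changes of -0.09 and 0.08 in the second and last steps and was called in neither, and the second-step call was lost when the probe sets of a gene were averaged. The other gene, WRKY39, was below background on both fully grown arrays, and its last fall was at least 1.59-fold. None of the other WRKY39 probe sets was called in the last step, with log2 changes of -0.81, -0.02 and -0.10.

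WRKY48 was at 221 and 224 in elongating pods, 376 and 360 in the 2 mm samples, 326 and 364 in the 5 mm seeds, and 168 and 165 in fully grown seeds. Its arrays at bean 2 mm and bean 5 mm overlapped, and its last change was a 1.98-fold fall with an adjusted p of 0.000107. WRKY29 fell too, as given above. WRKY23 fell 1.54-fold, while WRKY55 and WRKY34 were called lower but lay below background on both fully grown arrays, so that no fold is given for them. The number of falls was 4 without pod elongation replicate 1, pod elongation replicate 2 or bean 5 mm replicate 1. Those of WRKY47, WRKY29, WRKY10 and WRKY48 were called in all 8 fits that left out 1 array.

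On the log2(scaled signal + 16) scale WRKY27 had the largest of the 10 rises, 2.45-fold, and WRKY56 the next, 2.29-fold, both of them still far below their pod elongation level. The log2 change of WRKY27 was 1.29, but -0.16 after scaling to the controls, and that of WRKY56 was 1.19, but -0.26. Other tested probe sets of WRKY27, with log2 changes of 0.18 and 0.29, were not called in this step. For WRKY56 another set rose by 0.89 and was called, while sets with changes of 0.06, 0.12 and 0.47 were not. WRKY57, below background at bean 5 mm, was at 14.9 and 29.9 in fully grown seeds, where background was 15.98 and 18.6. Its signal there was 3.35-fold over the bean 5 mm background, on another scale than the 2 folds before it. Since background was higher on the fully grown arrays, and 1 of them was above it, 3.35-fold is not a lower bound on the change. The log2 change of WRKY57, 0.95, became 0.07 after scaling to the controls.

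WRKY24 was at 109 and 118.6 in elongating pods, 182 and 191 in the 2 mm samples, 148 and 145 in the 5 mm seeds, and 314 and 291 in fully grown seeds, with no overlap between any of the stages. It rose 1.96-fold in the last step, with an adjusted p of 0.000139, but its log2 change was -1.15 after scaling to the controls and -0.19 for unscaled values. WRKY15 was at 8.21 and 9.03, 18.6 and 17.8, 18.3 and 15.8, and 35.9 and 47.6 at the 4 stages in order. It rose 1.74-fold in the last step and had a log2 change of -0.54 after scaling to the controls. WRKY40, linked to resistance against Phytophthora sojae in soybean, was called higher although both stages lay below background.

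**Figure D4:**
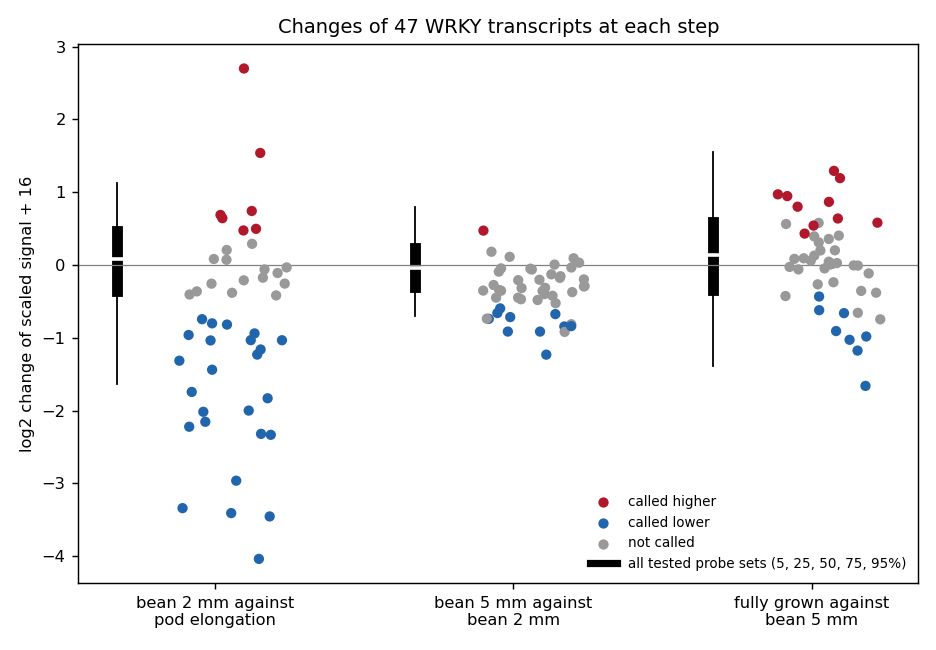
Each point is the log2 change of 1 of 47 WRKY genes at a step, red where called higher, blue where called lower and grey where not called. Black bars give the 5th to 95th percentile of all tested probe sets, thick from the 25th to the 75th, with a white mark at the median. The points of the first step reach from -4.04 to 2.70.

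The genes highest at pod elongation took 3 courses after bean 2 mm. For 12 of the 25 (48%) no later step was called, as for 53.7% of all 3749 probe sets highest at pod elongation. These were WRKY5, WRKY6, WRKY12, WRKY14, WRKY17, WRKY30, WRKY37, WRKY43, WRKY46, WRKY53, WRKY58 and WRKY60. With bean 5 mm left aside, WRKY12, WRKY14, WRKY43 and WRKY46 were called lower in fully grown seeds than at bean 2 mm. Their log2 changes were -1.05, -0.45, -1.67 and -0.87, and the rest of this group was called in neither direction. A further 8 (32%, beside 29.4% of those probe sets) fell again at 1 or both of the later steps (WRKY10, WRKY23, WRKY33, WRKY34, WRKY39, WRKY47, WRKY54 and WRKY55). Of these 8, WRKY10 and WRKY47 alone kept a later fall in all 8 fits that left out 1 array. The other 5 (20%, beside 14.2%) were WRKY27, WRKY51, WRKY52, WRKY56 and WRKY57. By their brightest probe sets they were higher in fully grown seeds than at bean 5 mm at the main scaling. This direction turned after scaling to the controls for all of them but WRKY57. The log2 changes of WRKY51 and WRKY52 were then -1.36 and -0.845. RefSeq lists SoyWRKY15d as another name of WRKY14.

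From pod elongation to fully grown seeds, with the steps between left aside, 29 of 47 genes were lower (61.7%) and 5 higher (10.6%), while 24.9% of all tested probe sets were lower, 37.3% higher and 62.2% changed. The median log2 change was -0.84 for the WRKY genes and 0.17 for all tested probe sets. This comparison shares its arrays with the steps above. Against pod elongation, bean 5 mm had 27 genes lower and 5 higher, where 18.7% of all tested probe sets were lower, 21.2% higher and 40% changed. Against bean 2 mm, fully grown seeds had 16 genes lower and 5 higher, where 23.6% of all tested probe sets were lower, 31.3% higher and 54.9% changed.

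No step was called for the brightest probe set of 10 of the 47 genes, and for 8 of these no pair of stages differed. Among the 8, other probe sets of WRKY9 and WRKY19 were called lower in the first step. A probe set of WRKY9 was also called higher in the last step, with a log2 change of 0.70. WRKY7 was the only 1 of the 8 that was above background on all 8 arrays, at 120 and 141, 123 and 154, 96.2 and 97.3, and 111 and 96.1 at the 4 stages in order. Its adjusted p over all stages was 0.0491, yet no single comparison was called at the main scaling. After scaling to the controls its log2 change in the last step was -1.76 and was called. Of all tested probe sets 16.3% had no pair of stages that differed. The tests could miss small changes, so these genes are not shown to be constant.

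Probe sets of a gene were compared where it had more than 1 tested. Over 23 genes and 45 pairs of the brightest with another set, both were called in the same direction in 29 pairs in the first step, 3 in the second and 9 in the last, and none in opposite directions. In the first step 1 of the 2 was called in 11 pairs, and in the last step in 26. WRKY32 and WRKY28, whose probe sets share the main number of their identifiers, had correlations between their own probe sets below 0 over the 8 arrays. The brightest set of neither gene was called at any step. Another WRKY32 set was called higher in the first and last steps, with log2 changes of 0.47 and 0.87. Of the 52 genes, none lies next to another of them among the protein-coding genes of the RefSeq assembly Glycine_max_v4.0.

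Other transcription factor families are given for their counts alone. In the first step 30 of 54 tested bZIP genes changed, 26 higher and 4 lower. Of 56 tested MYB genes 15 were higher and 14 lower, and of 15 NAC genes 2 were higher and 12 lower. Of all tested probe sets 26.5% were higher and 20.4% lower in this step, and 46.9% changed. Median log2 changes were 0.36, 0.00 and -0.98, beside -0.80 for the WRKY genes. At pod elongation 3 of the 54 bZIP, 10 of the 56 MYB and 9 of the 15 NAC genes were highest. The share was 53.2% of the WRKY genes and 11.1% of all tested probe sets. The differences between the families were not tested.

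Few genes known to act with WRKY factors were named on the array. All 3 listed MAP kinase pathway genes were tested. MAPK2 rose by 0.41 on the log2 scale in the first step, and in the last step MPK4B rose by 1.13 and MAPKK2 fell by 0.60. Directions of the last step were not tested under other scalings for these genes. Of 3 tested pathogenesis-related genes, which mark defence responses, PR1-7 and PR10 fell in the first step. PR1-7 went from 92.4 and 120 to 1.88 and 0.251, below background, with an adjusted p of 3.73e-06. PR10 was dim, at 9.58 and 9.93 before and 0.387 and 1.95, below background, after. Both genes were above background at pod elongation only and so passed the filter through that stage alone. PR-10 rose by 0.97 in the second step and fell by 0.64 in the last, to below background on both fully grown arrays. SNRK1, a kinase of energy and abscisic acid signalling, was called only in the last step, at 0.97.

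**Figure D5:**
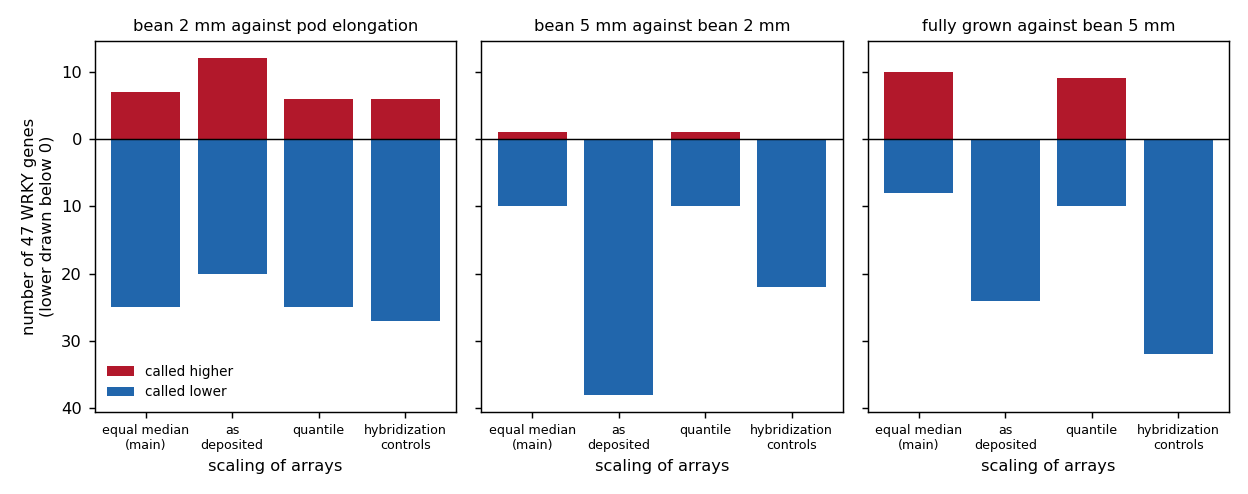
Bars give the number of 47 WRKY genes called higher (red, upward) or lower (blue, downward) at each step under 4 scalings of the arrays. In the first step 20 to 27 genes are lower under every scaling, while in the last step 10 and 9 are higher under equal medians and quantile normalization and none under the other 2.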

How the data were processed

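The members, gene lists and tests were chosen with earlier results of these data known. The authors deposited 1 linear signal intensity for each probe set on each array. The submitters' processing notes name MAS5 for the 5 mm and fully grown samples and no program for the others, so a change of program at the second step cannot be told apart from stage. Arrays were scaled to an equal median over the 33625 tested soybean probe sets (89.3%), and log2(signal + 16) was fitted with limma 3.58.1 in R 4.3.3 (4 group means over all 8 arrays, eBayes with a mean-variance trend, two-sided). P-values were Benjamini-Hochberg adjusted over all tested probe sets in each comparison, with a threshold of 0.05.

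Where both arrays of a stage were at or below background, the fold is a bound, written "at least", set against that background. The last-step fold of WRKY57 is not a bound, since background was higher on the fully grown arrays. The precision is limited by the number of arrays, and no depth applies.

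Symbols come from the platform annotation (8677 soybean probe sets with 1 gene, 370 with several, the rest without) and RefSeq. Named genes were, per step, up to 8 called rises and 8 called falls with the largest change and arrays that did not overlap, up to 5 genes per highest stage, and members singled out for their place in a count; WRKY52, WRKY54 at the first step, WRKY32, WRKY28 and WRKY7 were named after their values were seen. Listed genes outside the family were up to 3 called per list. VQ proteins, calmodulins and NPR genes were not found by symbol. WRKY subgroups and promoter motifs were planned from sequences and not analysed here. Same-numbered arrays deviated from their stage means with correlations of -0.0481 to 0.102, so replicate numbers were treated as unpaired. Scaling to hybridization controls used 9 probe sets (r2 series). A first run used the other 9 (BioB, BioC, BioDn and CreX, geometric means 316 to 710), and the set was changed after values had been seen; the other set is an alternative added after seeing the data. Alternatives were 3 other scalings, other pseudocounts and filters, other probe set choices, a replicate block, no trend, 4-array fits and each array left out.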

Additional observations from a re-analysis of the deposited data

Results flagged for a closer look

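Of 6 probe sets that match a WRKY gene and at least 1 other gene, 5 match more than 1 WRKY gene. They were used in no comparison, yet 4 of these 5 gave signal above background on at least 2 arrays. The set shared by WRKY49 and WRKY39 had a mean scaled signal of 217 over the 8 arrays, with 621 and 763 at pod elongation and 25.9 and 12.7 in fully grown beans. The set shared by WRKY33 and WRKY13 had a mean of 159, with 287 and 387 at pod elongation and 36.1 and 53.5 in fully grown beans. The set shared by WRKY16 and WRKY52 had a mean of 19.1, and that shared by WRKY19 and WRKY62 a mean of 6.48, the latter above background on 2 arrays. Control samples for these sets do not exist in the design, and the background was that of the pathogen probe sets.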

How the results depend on the processing

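Signal over background limits dim members, most of all on the fully grown arrays, and where a value moved the cause was not tested. Without scaling, 12 WRKY genes were higher in the first step (25.5%, beside 60.9% of all tested probe sets), 0 higher and 38 lower in the second (80.9% lower, beside 70.6%), and 0 higher and 24 lower in the last (51.1% lower, beside 59.1%). After scaling to the hybridization controls, 0 were higher and 22 lower in the second step (46.8% lower, beside 18.5%), and 0 higher and 32 lower in the last (68.1% lower, beside 84.4%). Scaling to the other 9 control probe sets, an alternative added after seeing the data, gave 0 higher and 16 lower in the second step and 0 higher and 32 lower in the last, beside 13.1% and 83.9% of all tested probe sets lower. Falls in the last step numbered 4 at pseudocount 64, 5 without the filter, 5 with the replicate block and 4 in a fit of only the 4 arrays compared. Falls in the second step numbered 6 when the probe sets of a gene were averaged, and rises in the last numbered 6 without probe sets that can match several transcripts. The replicate block, run although the numbers were not found to pair arrays, left 0 rises in the second step. Leaving out each array gave, for the first step, 5 to 7 higher and 23 to 27 lower, for the second 0 to 1 higher and 1 to 16 lower, for the last 7 to 14 higher and 4 to 8 lower, and 33 to 43 genes that differed among the stages. Of 839 values of the genes that the naming rule chose under alternatives 705 kept direction and side of the threshold, 119 lost their call and 15 turned. In the last step the log2 changes of these genes that turned were, with the first and the second set of controls, -0.54 and -0.52 for WRKY15, -1.15 and -1.11 for WRKY24, -0.16 and -0.13 for WRKY27, -1.40 and -1.37 for WRKY4, -0.14 and -0.13 for WRKY50, and -0.26 and -0.23 for WRKY56. Without scaling, those that turned were WRKY24 (-0.19) and WRKY4 (-0.51) in the last step and WRKY44 (-0.33) in the second. Outside the rule, the last rises of WRKY51 and WRKY52 turned too, to -1.36 and -0.845 with the first set of controls, -1.33 and -0.83 with the second and -0.51 and -0.30 without scaling. That of WRKY52 also turned to -0.045 with averaged probe sets and to -0.521 without probe sets that can match several transcripts.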
